A study of Mus musculus with 35 samples.

Results

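The comparison set mouse tracheas 4 days after heterotopic transplantation into MHC-compatible recipients, called day 4 isografts here, against untransplanted native tracheas. It covered 10 of the 35 Affymetrix arrays of the study, 5 per group. Its members were the probe sets, controls left out, with a log2 intensity of at least 5 in at least 5 of these 10 arrays, a rule that used the level and not the difference between the groups. In all, 12240 of 22626 probe sets met it, and 11238 of these named 1 gene, for 7579 genes. The other 25 arrays were day 14 and day 25 isografts and day 4, day 14 and day 25 allografts, 5 arrays each, and entered the choice of probe sets tested, the shared estimate of the spread and the values set beside these groups at the end. The isografts had the MHC type of their recipients, so that they carried the injury of transplantation without an MHC mismatch, and the comparison asks what that injury and the early repair after it look like. The sources used here give no strain, sex, age, drug treatment or graft site, and do not say whether an array held 1 animal or a pool. The p-values therefore measure the spread between arrays, which may be technical.

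The windpipe is lined by an epithelium of ciliated, secretory and basal cells and held open by cartilage rings, with smooth muscle, glands and vessels in its wall. A heterotopic graft is placed outside the airway and its vessels are not joined to those of the recipient, so that it lies without blood flow until vessels grow in. Tissue injured by loss of blood flow draws in neutrophils and monocytes, its differentiated epithelium is shed, and the remaining basal cells and fibroblasts divide to cover and fill the wound.

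Values are log2 intensities, on which a step of 1 is a 2-fold change, and differences are day 4 isograft minus native. Each gene is given by its brightest probe set, group values are means ± SD of 5 arrays, and a probe set was called when its adjusted p from limma, over 13678 probe sets, was under 0.05. Levels of about 2 to 4 lie near background in such data, so a fold against them depends on the background correction. The tissue markers were those of trachea: the native arrays held Scgb1a1 of club cells (14.44 ± 0.07), Col2a1 of cartilage (11.07 ± 0.92), Krt5 of basal cells (9.20 ± 0.91) and Myh11 of smooth muscle (8.68 ± 0.72). They also held Tg, the precursor of thyroid hormone (14.46 ± 0.13), and Pth, parathyroid hormone (12.78 ± 0.26), as well as fat and skeletal muscle genes. In tissue RNA, fewer cells of a type and less RNA per cell cannot be told apart.

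Array medians lay between 5.18 and 5.27. Correlations between arrays ran from 0.911 to 0.977 within the isografts, from 0.871 to 0.969 within the native group and from 0.692 to 0.793 between the groups. Native replicate 5 stood apart: without it the native correlations started at 0.919. It held the highest skin and hair marker level (5.04, against 3.26 to 3.49 in the other native arrays) and the highest skeletal muscle level (10.21, against 6.44 to 8.53). Isograft replicate 2 stood apart in fat markers, with a mean level of 9.38 over 23 adipocyte genes, against 6.44 to 6.90 in the other isografts. Isograft replicate 3 had the lowest skeletal muscle level (4.01, against 5.46 to 6.68). Counts over the gene lists were therefore also made without native replicate 5 and without isograft replicate 2, and are given where a count of at least 5 differed by more than 1.5 times.

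At day 4, macrophage, neutrophil and inflammatory genes, mitosis and replication genes and matrix genes were higher than in native trachea, while secretory and ciliated epithelial genes, mitochondrial and fat metabolism genes and smooth muscle genes were lower. Of the 12240 members, 5409 (44.2%) were called, 2492 higher (20.4%) and 2917 lower (23.8%) in isografts. Of all 13678 probe sets tested, 44.3% were called. Of the called members, 1189 rose (9.71% of the members) and 1533 fell (12.5%) by at least 2-fold. The 5 isograft and 5 native arrays did not overlap for 3504 members (28.6%). The median difference over the members was -0.05, with the middle of the distribution between -0.54 and 0.42. Of the genes, 3510 (46.3%) were called, 1484 higher (19.6%) and 2026 lower (26.7%), with a median of -0.10, and the gene lists below are read against these shares. The balance depended on the scaling: 46.1% of called members were higher as deposited, 58.2% after centring on array medians and 19.8% after centring on 16 scaling reference genes, whose mean was 0.36 higher in isografts than in native arrays. Of these 16 genes, 9 were themselves called higher as deposited and 1 lower, and whether their rise came from the tissue or the scaling was not tested. Centring on them moved the median difference of the members to -0.41, so small differences change direction with it. Because of the filter, 208 members were at 5 or more in every isograft and below 5 in every native array, and 166 were the reverse. These had to differ. Where at least 2 measured genes of a list passed the filter through 1 group alone, their number is given below. At the edge of the filter, the 615 probe sets with 5 arrays at 5 or more had a median fifth-highest value of 5.25, against 4.88 in the 448 probe sets with 4 such arrays.

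**Figure D1:**
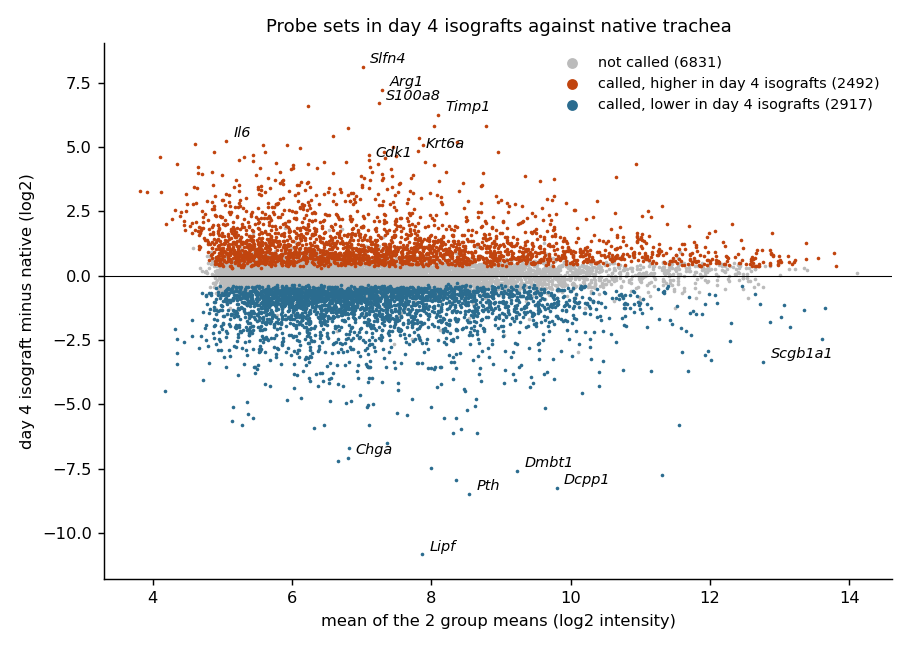
Each point is 1 of the 12240 probe sets. The horizontal axis is the mean of the isograft and native group means and the vertical axis the isograft minus native difference, both in log2 intensity; called probe sets are coloured by direction. Differences ran from 8.10 (Slfn4) to -10.83 (Lipf).

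**Figure D2:**
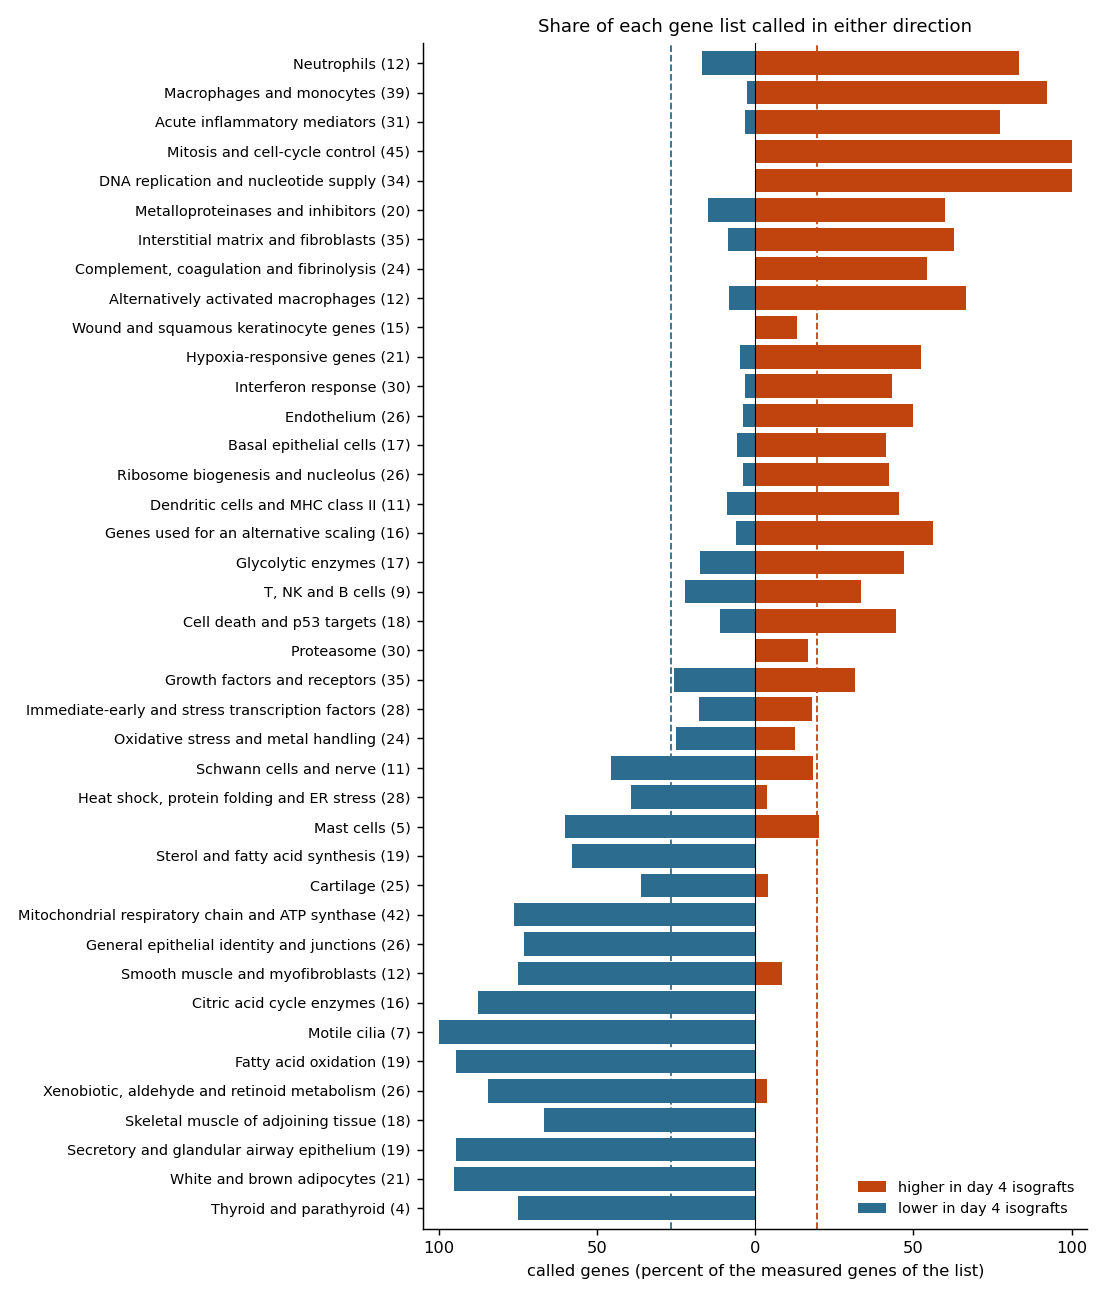
Bars give the percent of the measured genes of each list that were called higher (right) or lower (left) in day 4 isografts, ordered by median difference, with the number of measured genes in parentheses. Dashed lines mark the shares over all measured genes, 19.6% higher and 26.7% lower. Mitosis and replication lists lie at 100% higher, and fatty acid oxidation and secretory epithelium at 94.7% lower.

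Neutrophil genes were among the largest rises. S100a8, a calcium-binding protein of neutrophils and young monocytes, was 10.34, 10.66, 10.07, 11.27 and 10.65 in the isografts, against 3.86, 4.79, 3.46, 3.88 and 3.50 in native trachea. The lowest isograft lay 5.28 log2 units above the highest native array. Its difference was 6.70 (SE 0.66, 104-fold, adjusted p = 1.85e-09), and that of its partner S100a9 was 5.81 (SE 0.62). Clec4d, a C-type lectin receptor of myeloid cells, averaged 9.67 ± 0.17 in isografts and 3.93 ± 0.29 in native trachea, a rise of 5.74 (SE 0.46). The neutrophil collagenase Mmp8 averaged 7.48 ± 0.21 in isografts and 3.00 ± 0.47 in native trachea. Of 18 neutrophil genes on the array, 10 were called higher, 2 lower and 6 lay below the filter, with a median difference of 1.34 over the 18. Of those measured, 5 were below 5 in every native array and so passed the filter through the isografts alone. The members below the filter included Elane, Mpo and Ngp, which are granule genes made mostly in neutrophil precursors. Both lower members had high native levels. Lactoferrin (Ltf), a granule protein that airway glands also secrete, averaged 12.15 ± 0.59 in isografts and 14.16 ± 0.06 in native trachea, and Cd177 averaged 3.67 ± 0.16 and 7.31 ± 1.08.

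Macrophage and monocyte genes rose broadly. Of 41 on the array, 39 were measured, 36 of them called higher and 1 lower. The median difference was 2.70 over the 41 and 2.73 over the 39, against -0.10 over all measured genes. Of those measured, 8 were below 5 in every native array and passed through the isografts alone. Cd68, a lysosomal protein of macrophages, was 9.88, 9.48, 9.64, 9.40 and 9.69 in isografts, against 5.65, 5.10, 5.78, 5.03 and 3.71 in native trachea. The groups lay apart by 3.62 or more log2 units, and the difference was 4.56 (SE 0.33, 23.6-fold, adjusted p = 4.55e-12). Msr1, a scavenger receptor for modified lipoproteins and debris, averaged 9.29 ± 0.16 in isografts and 3.88 ± 0.20 in native trachea (difference 5.42, SE 0.44), and its other probe sets rose by 3.46 and 2.67. Ms4a6d, a macrophage membrane protein, rose by 5.36 (SE 0.38). The general leukocyte marker Ptprc (CD45) rose by 2.16 (SE 0.32), from a level already above background, with 9.59 ± 0.32 in isografts and 7.43 ± 0.86 in native trachea. The lower member was Lyz2, lysozyme of macrophages and airway secretory cells, at 12.68 ± 0.21 in isografts and 14.02 ± 0.20 in native trachea.

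Arg1, the arginase that macrophages induce in wounds and under type 2 cytokines, had the largest rise after that of Slfn4 among genes whose arrays did not overlap. It was 11.42, 11.70, 10.20, 10.35 and 10.85 in isografts, against 3.40, 2.49, 3.81, 3.35 and 5.40 in native trachea. The ranges were separated by 4.8 log2 units, and the difference was 7.21 (SE 0.95, adjusted p = 3.85e-07). The mannose receptor Mrc1 averaged 11.31 ± 0.19 in isografts and 8.22 ± 0.29 in native trachea (difference 3.09), and Il4ra, a receptor chain for the cytokines that drive alternative activation, rose by 2.91 (SE 0.36). Among 17 genes linked to alternative activation, 8 were called higher and 1 lower, 5 lay below the filter, and the median over the 17 was 0.53. The lower gene was Retnla, a secreted marker of alternative activation that airway and fat tissue also make, with 5.80, 6.36, 9.48, 6.51 and 6.11 in isografts, against 8.24 to 9.52 in native trachea. Isograft replicate 3 overlapped the native arrays and the other 4 isografts lay below them (difference -1.97, SE 0.63, adjusted p = 0.0125).

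Acute inflammatory mediators followed the leukocyte genes. Il6, a cytokine that drives the acute-phase response, was 7.63, 7.34, 7.71, 8.51 and 7.13 in isografts, against 2.58, 2.56, 1.92, 2.35 and 2.78 in native trachea. All native values were near background, and the difference was 5.23 (SE 0.50, 37.5-fold, adjusted p = 9.06e-10). Il1b, a cytokine of activated myeloid cells, rose by 4.68 (SE 0.51), with 9.45 ± 0.28 in isografts and 4.77 ± 0.40 in native trachea. The monocyte-attracting chemokines Ccl2, Ccl8 and Ccl6 rose by 3.86, 5.18 and 4.8. Ccl2 was scattered in native trachea, between 3.51 and 7.23, and still lay below the lowest isograft (8.74). In all, 24 of 38 mediators on the array were called higher and 1 lower, 7 lay below the filter, and the median over the 38 was 1.78. Of the measured mediators, 4 passed through the isografts alone, and Tnf, Il1a and Csf3 were among those below the filter. The lower member was Orm1, an acute-phase glycoprotein that fat cells also secrete, at 4.48 to 4.85 in 4 isografts and 8.5 in the fat-rich isograft replicate 2, against 6.85 to 9.20 in native trachea (difference -2.86, and -3.62 without that array).

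The largest rise of all was that of Slfn4, a schlafen family gene induced in activated myeloid cells. It was 10.67, 10.94, 11.73, 11.13 and 10.91 in isografts, against 2.67, 3.36, 2.78, 2.76 and 3.29 in native trachea. The isografts spanned 1.06 log2 units and the difference was 8.10 (SE 0.54, adjusted p = 4.65e-13). Ppbp, a chemokine stored in platelets, averaged 9.52 ± 0.65 in isografts and 2.95 ± 0.23 in native trachea, a rise of 6.57 (SE 0.97). Slc15a3, a lysosomal peptide transporter of immune cells, rose by 5.09 (SE 0.38).

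**Figure D3:**
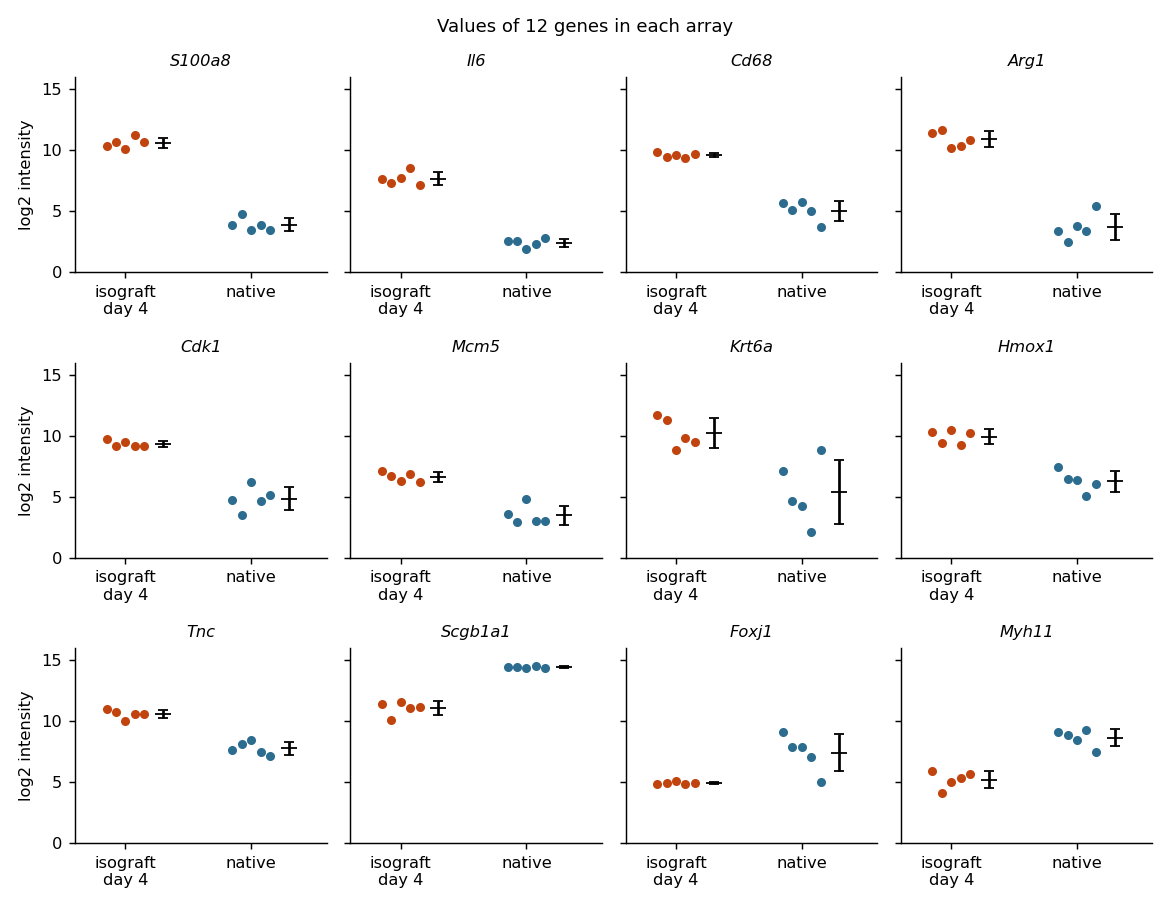
Log2 intensity of 12 genes in each of the 5 day 4 isografts (left in each panel) and the 5 native tracheas (right); bars beside the points are the mean ± SD. The arrays of the groups do not overlap for S100a8, Il6, Cd68, Arg1, Cdk1, Mcm5, Krt6a, Hmox1, Tnc, Scgb1a1 and Myh11, while for Foxj1 native replicate 5 (5.06) lies within the isograft range.

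Lymphocyte genes did not move together. Of 26 T, NK and B cell genes on the array, 17 lay below the filter, 3 were called higher and 2 lower, and the median over the 26 was 0.12. Cd3e, a chain of the T cell receptor complex, stayed below the filter at 4.64 ± 0.28 in isografts and 4.67 ± 0.27 in native trachea. Gzma, a granzyme of cytotoxic cells, rose by 2.23 (SE 0.25), with 7.17 ± 0.34 in isografts and 4.94 ± 0.41 in native trachea. The chemokine Ccl5 rose by 2.48 and the lymph-node homing receptor Ccr7 by 2.11. The antibody joining chain Jchain, a plasma cell gene, was 2.51 to 2.83 in isografts, against 6.18 to 9.23 in native trachea, a fall of 5.52 on the log2 scale (SE 0.72, adjusted p = 3.19e-07). Lat, an adaptor of T cell receptor signalling, fell by 1.61, with 1 native array (5.00) inside the isograft range.

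Dendritic cell and MHC class II genes gave 5 higher and 1 lower of 20 on the array, with a median over the 20 of 0.45. In this list 11 genes passed the filter, 2 of them through the isografts alone. The count of 5 was 3 without isograft replicate 1 or 3, without native replicate 4 or 5, and with centring on the reference genes. Fscn1, an actin-bundling protein of mature dendritic cells and of migrating fibroblasts and endothelium, rose by 3.68 (SE 0.24), with 11.40 ± 0.24 in isografts and 7.72 ± 0.27 in native trachea. Of 14 mast cell genes on the array, 3 were called lower and 1 higher, and 9 lay below the filter. Cpa3, a granule protease, fell by 1.41 (SE 0.26) and Hdc, which makes histamine, by 1.55 (SE 0.48). Both had lower isograft means, 4.82 ± 0.28 against 6.24 ± 0.56 for Cpa3 and 5.27 ± 0.58 against 6.82 ± 0.89 for Hdc, and for Hdc 1 native array (5.55) overlapped. Srgn, the proteoglycan core of granules in most blood cells, was the higher gene at 11.84 ± 0.27 in isografts and 8.93 ± 0.17 in native trachea. Kit, the receptor for stem cell factor, was not called at 6.43 ± 0.23 in isografts and 6.50 ± 0.36 in native trachea, but its other probe set gave 0.53 and was called.

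Interferon response genes were partly higher, with 13 of 32 on the array called higher and 1 lower, and a median over the 32 of 0.59. Among those measured, 2 passed the filter through the isografts alone. Irf7, a transcription factor that amplifies interferon production, averaged 6.61 ± 0.49 in isografts and 4.20 ± 0.24 in native trachea (difference 2.41, SE 0.34). Oasl1, an oligoadenylate synthetase-like protein, rose by 1.95 (SE 0.37). Isg20, an interferon-induced exonuclease, fell by 1.78 (SE 0.40). Cxcl9, a T cell chemokine that depends on interferon gamma, lay below the filter at 3.83 ± 0.70 in isografts and 3.65 ± 0.34 in native trachea. Complement and coagulation genes gave 13 higher and 0 lower of 28 on the array, with a median over the 28 of 0.89. Here too, 2 measured genes passed through the isografts alone. The complement receptor C3ar1 rose by 4.82 (SE 0.38) and properdin (Cfp), which stabilises the alternative pathway convertase, by 3.35 (SE 0.42). Tfpi2, an inhibitor of coagulation and matrix proteases, rose by 3.52 (SE 0.40). Myeloid cells express several of these genes, among them C3ar1, Cfp and the C1q chains.

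Genes of cell division that passed the filter were all called higher. Cdk1, the kinase that drives entry into mitosis, was 9.74, 9.15, 9.50, 9.17 and 9.14 in isografts, against 4.75, 3.49, 6.19, 4.70 and 5.15 in native trachea. Native replicate 3 was the highest native array and still lay 2.95 below the lowest isograft, and the difference was 4.48 (SE 0.40, 22.3-fold, adjusted p = 3.15e-10). Birc5, which attaches the chromosomal passenger complex and blocks cell death, rose by 4.28 (SE 0.44). Mki67, a coat protein of mitotic chromosomes, averaged 9.20 ± 0.21 in isografts and 5.41 ± 1.29 in native trachea, and Top2a, which untangles sister chromosomes, averaged 8.06 ± 0.29 and 4.41 ± 1.28. The native arrays varied more than the isografts for these genes, with native replicate 2 lowest for each of Cdk1, Birc5, Mki67 and Top2a. Of 58 mitosis and cell-cycle genes on the array, 45 lay above the filter and all 45 were called higher. Since 17 of the 45 were below 5 in every native array, they passed through the isografts alone, and over the 58 the median difference was 2.29.

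Replication genes showed the same direction. Rrm2, the subunit that limits deoxynucleotide supply, averaged 10.22 ± 0.33 in isografts and 6.20 ± 1.29 in native trachea, a rise of 4.02 (SE 0.41). Mcm5, part of the replicative helicase, was 7.08, 6.70, 6.33, 6.88 and 6.18 in isografts, against 3.59, 2.91, 4.8, 3.02 and 3.04 in native trachea, and the groups did not overlap (difference 3.16, SE 0.41). Hells, a chromatin remodeller of dividing cells, rose by 3.45 (SE 0.35), and Tk1, which salvages thymidine, by 3.38 (SE 0.33). Of 41 replication genes on the array, 34 passed the level filter and were called higher, 6 of them below 5 in every native array, and the median over the 41 was 1.44.

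The promoters of the 5 mitosis genes with the largest rises and a single promoter entry are shown because dividing cells are known to control such genes through a short element, TTTGAA, and through CCAAT boxes. Each line gives 300 bases of GRCm38.p6 from RefSeq that span the start of the gene, in the gene's direction. Capitals mark TTTGAA or its other strand TTCAAA, and CCAAT or its other strand ATTGG. The windows lie at chr10:69352863-69353162, minus strand, for Cdk1; chr11:117848987-117849286, plus strand, for Birc5; chr7:135716330-135716629, minus strand, for Mki67; chr4:118437294-118437593, minus strand, for Cdc20; and chr11:99024140-99024439, minus strand, for Top2a.
Cdk1: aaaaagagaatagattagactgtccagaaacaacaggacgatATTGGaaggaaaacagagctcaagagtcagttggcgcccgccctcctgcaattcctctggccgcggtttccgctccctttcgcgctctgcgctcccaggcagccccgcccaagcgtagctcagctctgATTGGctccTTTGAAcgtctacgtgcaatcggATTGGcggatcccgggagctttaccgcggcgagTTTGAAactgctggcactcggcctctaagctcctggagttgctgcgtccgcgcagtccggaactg
Birc5: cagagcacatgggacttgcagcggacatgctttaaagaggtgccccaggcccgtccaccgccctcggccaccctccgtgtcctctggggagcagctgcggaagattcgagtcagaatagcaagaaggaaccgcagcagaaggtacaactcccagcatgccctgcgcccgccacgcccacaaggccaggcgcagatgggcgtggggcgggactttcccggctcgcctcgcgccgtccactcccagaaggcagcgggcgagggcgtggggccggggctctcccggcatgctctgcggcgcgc
Mki67: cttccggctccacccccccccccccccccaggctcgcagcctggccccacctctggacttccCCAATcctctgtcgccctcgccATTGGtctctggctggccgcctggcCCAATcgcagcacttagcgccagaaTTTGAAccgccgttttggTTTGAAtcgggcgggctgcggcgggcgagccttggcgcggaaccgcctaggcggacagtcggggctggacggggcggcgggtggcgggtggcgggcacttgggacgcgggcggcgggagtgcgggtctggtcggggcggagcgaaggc
Top2a: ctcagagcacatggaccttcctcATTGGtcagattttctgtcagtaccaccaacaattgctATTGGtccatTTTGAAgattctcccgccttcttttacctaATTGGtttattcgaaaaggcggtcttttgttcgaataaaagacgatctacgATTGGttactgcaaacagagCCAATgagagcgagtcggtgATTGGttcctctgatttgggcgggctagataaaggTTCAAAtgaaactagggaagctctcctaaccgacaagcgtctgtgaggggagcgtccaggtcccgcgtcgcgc
Cdc20: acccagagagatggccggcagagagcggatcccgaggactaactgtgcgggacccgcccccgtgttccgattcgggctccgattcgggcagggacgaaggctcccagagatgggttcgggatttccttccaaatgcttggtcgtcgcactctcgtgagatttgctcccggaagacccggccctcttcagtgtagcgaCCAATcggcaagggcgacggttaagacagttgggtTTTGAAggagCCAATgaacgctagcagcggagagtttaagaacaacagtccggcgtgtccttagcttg
TTTGAA or its reverse stood in 28 of 40 windows (70.0%) of the 37 higher mitosis genes with a window, against 17.9% of 32851 RefSeq windows. CCAAT or its reverse stood in 29 of the 40 (72.5%), against 37.4%. The Birc5 window held neither. Both strands were searched, the motifs may overlap, and a match is a description of these windows only.

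Ribosome and proteasome genes moved less. Of 29 ribosome biogenesis genes on the array, 11 were called higher and 1 lower, with a median over the 29 of 0.39, and with centring on the scaling reference genes 7 were higher. The nucleolar proteins Gnl3, Npm1 and Ncl rose by 1.24 (SE 0.21), 1.17 (SE 0.22) and 1.12 (SE 0.23). Of 30 proteasome subunits, 5 were called higher, near the share over all genes, and 0 lower. The largest of these rises was that of Psma5 (0.92, SE 0.24), and with centring on the scaling reference genes none of the 30 was called higher.

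Several of the largest falls were in secretory and gland products. Lipf, a lipase known as a gastric enzyme, was 1.86, 2.02, 2.08, 2.80 and 3.50 in isografts, against 13.07, 13.25, 13.20, 13.17 and 13.75 in native trachea. The isografts lay at background and the native arrays near the top of the scale, a difference of -10.83 (SE 0.44, adjusted p = 2.67e-18). Dcpp1, a salivary and gland secretory protein, fell by 8.24 on the log2 scale (SE 0.49), with 5.68 ± 0.84 in isografts and 13.92 ± 0.44 in native trachea. Dcpp3, a close copy of it whose signal may be shared, fell by 5.94 (SE 0.45). Dmbt1, a secreted scavenger receptor that binds bacteria, averaged 5.44 ± 0.98 in isografts and 13.02 ± 0.19 in native trachea (difference -7.58, SE 0.50). Tff2, a peptide that protects mucous surfaces, averaged 5.25 ± 0.32 and 11.36 ± 0.84 (difference -6.10, SE 0.32).

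Muc5b, the main secreted mucin of mouse airways, was 7.29, 6.53, 7.77, 7.31 and 7.92 in isografts, against 11.82, 11.33, 11.60, 11.37 and 11.62 in native trachea, and the groups did not overlap (difference -4.18, SE 0.56). Scgb1a1, the club cell secretoglobin, was 11.39, 10.14, 11.60, 11.11 and 11.22 in isografts, against 14.43, 14.48, 14.36, 14.53 and 14.41 in native trachea. It remained well above background in every isograft, and its difference was -3.35 (SE 0.53, 10.2-fold lower, adjusted p = 7.57e-06). Of 23 secretory genes on the array, 18 were called lower, 0 higher, and 4 lay below the filter, with a median over the 23 of -2.45. Chga, a granin of neuroendocrine cells and of the parathyroid, averaged 3.26 ± 0.09 in isografts and 10.34 ± 0.48 in native trachea, a fall of 7.08 on the log2 scale. Parathyroid hormone fell with it, and the part of attached gland tissue in the Chga result was not tested.

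Cilia genes were lower as well. Foxj1, the transcription factor that switches on the motile cilium programme, was 4.87, 4.94, 5.10, 4.88 and 4.97 in isografts, against 9.14, 7.94, 7.89, 7.06 and 5.06 in native trachea. Native replicates 1 to 4 lay above every isograft, and native replicate 5 lay among the isografts (difference -2.46, SE 0.45, adjusted p = 5.66e-05). Tppp3, a tubulin-binding protein of cilia, averaged 6.20 ± 0.38 in isografts and 9.80 ± 0.31 in native trachea (difference -3.60, SE 0.46). Mlf1, a gene of ciliated cells, averaged 4.42 ± 0.10 and 7.40 ± 0.75 (difference -2.98, SE 0.55). Of 16 cilia genes on the array, 7 were measured and called lower, 3 of them at below 5 in every isograft, and the median over the 16 was -1.78. The Mlf1 promoter, chr3:67373847-67374146, plus strand of GRCm38.p6 (RefSeq), is shown because it holds a GTTGCC core, in capitals, which regulators of cilia genes of the RFX family bind.
Mlf1: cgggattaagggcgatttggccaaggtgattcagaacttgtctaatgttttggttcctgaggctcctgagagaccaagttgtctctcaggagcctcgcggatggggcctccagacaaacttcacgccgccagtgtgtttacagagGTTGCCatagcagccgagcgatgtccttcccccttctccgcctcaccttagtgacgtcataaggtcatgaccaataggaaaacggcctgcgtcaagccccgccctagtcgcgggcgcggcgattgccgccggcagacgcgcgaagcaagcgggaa
GTTGCC or its reverse GGCAAC stood in 3 of 5 windows (60.0%) of the lower cilia genes, against 12.5% of all 32851 windows.

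General epithelial genes fell less. Of 31 on the array, 19 were called lower and 0 higher, with a median over the 31 of -1.14. Among those measured, 2 were below 5 in every isograft and passed through the native arrays alone. Cldn8, a tight-junction protein, averaged 4.44 ± 0.12 in isografts and 8.61 ± 0.45 in native trachea (difference -4.17, SE 0.38). Tmprss2, a membrane protease of luminal cells, fell by 3.45 (SE 0.33). Prom1, a protein of apical membrane protrusions, fell by 2.5 (SE 0.59). Prom1 was 7.39 to 7.96 in 4 isografts and 4.19 in isograft replicate 2, against 8.61 to 10.15 in native trachea. Epcam, found on most epithelial cells, was 9.70, 8.56, 8.36, 8.87 and 9.03 in isografts, against 11.52, 9.93, 9.93, 10.53 and 9.12 in native trachea. The groups overlapped at native replicate 5, and the call (difference -1.30, SE 0.47, adjusted p = 0.0244) was lost without isograft replicate 2 or 3 or native replicate 1 or 4, with adjusted p up to 0.0993.

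Basal cell genes went the other way in part. Krt5, the keratin that defines basal cells, was not called at 9.76 ± 0.65 in isografts and 9.20 ± 0.91 in native trachea (difference 0.56, SE 0.59, adjusted p = 0.459). Krt14, its partner, which dividing basal cells raise, was 12.10, 11.18, 9.49, 10.24 and 9.45 in isografts, against 7.77, 6.83, 6.79, 5.76 and 9.77 in native trachea. Native replicate 5, which also held the most skin signal, overlapped the isografts, and the difference was 3.11 (SE 0.78, adjusted p = 0.00174). Krt17, induced in wounded epithelium, rose by 2.91 (SE 0.52) with no overlap. Pdpn, a mucin-like protein of basal cells and fibroblasts, rose by 1.33 (SE 0.32), while Krt15 fell by 1.53 (SE 0.62, adjusted p = 0.0431). The Krt15 call was lost on leaving out any of 7 of the 10 arrays (adjusted p up to 0.128). Of 17 basal genes, 7 were called higher and 1 lower, with a median of 0.50.

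Krt6a, the keratin of wound edges, was 11.68, 11.32, 8.88, 9.79 and 9.46 in isografts, against 7.14, 4.62, 4.26, 2.10 and 8.88 in native trachea. Native replicate 5 lay barely under isograft replicate 3, both 8.88 after rounding, and the difference was 4.83 (SE 1.33, adjusted p = 0.00392). The probe sets of near-identical keratins may share signal. Ereg, a ligand of the EGF receptor made by wounded epithelium and macrophages, rose by 2.12 (SE 0.44). Of 26 wound and squamous genes, 2 were called higher, 0 lower, 13 not called and 11 lay below the filter, with a median over the 26 of 0.87. The list varied widely within groups: its mean level was 8.56, 7.78, 5.94, 6.17 and 5.98 in isografts, against 5.93, 5.25, 5.06, 4.87 and 8.29 in native trachea. The count of 2 became 4 without native replicate 1 or native replicate 5. It became 6 without both native replicate 5 and day 25 isograft replicate 5, and 7 with array weights.

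Hypoxia-responsive genes were higher, unevenly. Of 23 on the array, 11 were called higher and 1 lower, with a median over the 23 of 0.66. Slc2a1, the basal glucose transporter, was 9.94, 10.55, 9.88, 10.49 and 10.96 in isografts, against 8.53, 8.53, 7.69, 7.65 and 8.89 in native trachea, with no overlap (difference 2.11, SE 0.29, adjusted p = 8.1e-07). Adm, a vessel-dilating peptide, rose by 2.79 (SE 0.39), and Ndrg1, a stress protein of low oxygen, by 2.46 (SE 0.29). Vegfa, the main growth factor for vessels, was not called at 8.09 ± 0.43 in isografts and 8.63 ± 0.42 in native trachea (difference -0.54, SE 0.31, adjusted p = 0.166). It was lower with centring on the scaling reference genes (-0.89, adjusted p = 0.023). Epas1, a hypoxia-inducible factor of endothelium and fat, fell by 2.97 (SE 0.43).

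Glycolytic genes moved in both directions. Slc16a3, the lactate exporter, rose by 2.85 (SE 0.38), Pgk1 by 1.39 (SE 0.21) and Eno2 by 1.18 (SE 0.31). Ldhb, the lactate dehydrogenase subunit of oxidative tissue, averaged 7.60 ± 0.63 in isografts and 10.52 ± 0.49 in native trachea, a fall of 2.92 (SE 0.65). Of 18 genes, 8 were called higher and 3 lower, with a median of 0.17. Without native replicate 3 only 1 was lower, and with centring on the reference genes, of which Pgk1 is 1, there were 5 higher and 6 lower.

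Among genes of oxidative stress and metals, Hmox1, which breaks down heme, was 10.31, 9.39, 10.52, 9.26 and 10.26 in isografts, against 7.45, 6.48, 6.40, 5.04 and 6.02 in native trachea. Each isograft exceeded each native array, and the difference was 3.67 (SE 0.46, 12.8-fold, adjusted p = 1.42e-07). The iron exporter Slc40a1 rose by 2.21 (SE 0.34). Gstm1, a glutathione transferase, averaged 7.47 ± 0.43 in isografts and 11.04 ± 0.38 in native trachea (difference -3.56, SE 0.37), and Gclc, which limits glutathione synthesis, fell by 1.45 (SE 0.43) with overlap. Of 26 genes, 24 were measured, with 3 called higher (12.5%) and 6 lower (25.0%), against 19.6% and 26.7% over all measured genes. The median over the 26 was -0.08. The balance depended on the scaling, since 6 were higher with centring on array medians and 11 lower with centring on the reference genes. With array weights 7 were higher.

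Heat-shock genes were lower and depended on the native arrays. Hspa1a, an inducible chaperone, was 6.93, 7.30, 7.79, 7.62 and 8.0 in isografts, against 12.30, 11.99, 11.43, 7.16 and 8.10 in native trachea. Native replicates 1, 2 and 3 were high and native replicates 4 and 5 lay at or near the isograft range (difference -2.67, SE 0.62, adjusted p = 0.000828). Hspa1b, a near-identical copy whose probe sets may share signal, split the native arrays in the same way (12.60, 12.53 and 12.07, against 9.42 and 9.89). Dnajb4, a co-chaperone, averaged 7.08 ± 0.29 in isografts and 9.27 ± 1.17 in native trachea without overlap. Of 30 heat-shock and protein-folding genes, 11 were called lower and 1 higher, with a median of -0.47. With centring on the reference genes 19 were lower, and with array weights 17. Hspa5, the main chaperone of the endoplasmic reticulum, was not called (difference -0.43, adjusted p = 0.108) and was called lower without native replicate 5 (-0.57, adjusted p = 0.0364).

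With all arrays, immediate-early genes were called in either direction no more often than measured genes at large. Nr4a1, an early-response nuclear receptor, was 7.32, 6.33, 6.51, 7.19 and 6.26 in isografts, against 10.79, 9.03, 9.87, 7.03 and 6.91 in native trachea. The last 2 native arrays lay inside the isograft range (difference -2.0, SE 0.48). Klf4, an epithelial and early-response factor, fell by 1.16 (SE 0.33). Socs3, a feedback inhibitor of cytokine signalling, averaged 10.50 ± 0.50 in isografts and 7.66 ± 1.23 in native trachea (difference 2.84, SE 0.39), and Ier3 rose by 1.85 (SE 0.39). Of 32 genes, 28 were measured, and the median over the 32 was 0.04. Of those measured, 5 were called higher (17.9%) and 5 lower (17.9%), against 19.6% and 26.7% over all measured genes. Without native replicate 1 these counts were 10 and 3, and with centring on the reference genes 3 and 8. Of 21 cell death and p53 genes, 8 were called higher and 2 lower, with a median of 0.15, and with centring on the reference genes 4 were higher and 4 lower. The higher genes included both the death-promoting Bcl2l11 (1.36, SE 0.41) and the protective Mcl1 (1.34, SE 0.26), each with overlapping groups, and Trp53inp1, a p53 target, fell by 1.12 (SE 0.33). The 5 other measured probe sets of Mcl1 gave smaller differences, 0.18 to 0.97, and only 1 of them was called. Bcl2l11 was not called with centring on the reference genes (1.00, adjusted p = 0.051).

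Matrix genes were higher, with 22 of 35 called higher and 3 lower and a median of 1.06. Tnc, a matrix protein of wounds, was 10.99, 10.76, 10.06, 10.57 and 10.58 in isografts, against 7.68, 8.19, 8.48, 7.51 and 7.14 in native trachea. The gap between the groups was 1.58 and the difference 2.79 (SE 0.34, adjusted p = 1.14e-07). Tgfbi, a matrix adaptor induced by TGF-beta, rose by 2.83 (SE 0.28), and Lox, which crosslinks collagen, by 2.53 (SE 0.32). Col1a1, the main chain of interstitial collagen, averaged 12.66 ± 0.32 in isografts and 10.74 ± 0.67 in native trachea (difference 1.92, SE 0.31), but its other probe set gave 0.45 and was not called. Elastin (Eln) fell by 0.85 (SE 0.29, adjusted p = 0.0179), and the call was lost without native replicate 4 (-0.58, adjusted p = 0.0936). Its other probe set gave -0.53 and was not called, and the mean of its probe sets was not called either (-0.69, adjusted p = 0.139). Fmod, a proteoglycan that organises collagen fibrils in cartilage and tendon, fell by 1.72 (SE 0.38), and its 5 other probe sets fell too.

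Timp1, an inhibitor of metalloproteinases, was 11.09, 10.97, 11.30, 11.40 and 11.32 in isografts, against 6.65, 5.45, 4.72, 4.91 and 3.09 in native trachea. The isografts spread over 0.43 log2 units and the native arrays over 3.56, and the difference was 6.25 (SE 0.50, 76.2-fold, adjusted p = 3.38e-11). The macrophage elastase Mmp12 averaged 7.79 ± 0.46 in isografts and 3.10 ± 0.51 in native trachea (difference 4.69, SE 0.45). Timp4, a related inhibitor, averaged 4.44 ± 0.88 and 6.82 ± 0.37, a fall of 2.38 (SE 0.55). Of 22 proteases and inhibitors, 12 were called higher and 3 lower, with a median of 1.16. Among those measured, 2 passed the filter through the isografts alone.

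Cartilage genes were lower in part. Col2a1, the collagen that defines cartilage, was not called at 11.59 ± 0.82 in isografts and 11.07 ± 0.92 in native trachea (difference 0.52, SE 0.56, adjusted p = 0.475). Chad, a cartilage leucine-rich protein, was 7.48, 8.51, 9.22, 8.90 and 9.89 in isografts, against 12.85, 12.91, 11.91, 11.39 and 11.57 in native trachea, and the groups did not overlap (difference -3.32, SE 0.48). Mia, secreted by chondrocytes, fell by 2.82 (SE 0.62), and Matn1, a matrix protein of tracheal cartilage, by 2.00 (SE 0.62), with native replicate 3 (6.44) among the isografts. Prg4, the lubricant of joint surfaces, rose by 1.42 (SE 0.36). Of 26 genes, 9 were called lower and 1 higher, with a median of -0.82, and with centring on array medians 5 were lower. Isograft replicate 1 had the lowest list level (6.54, against 7.36 to 8.45 in the other isografts), and without it 4 were lower.

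Contractile genes of smooth muscle fell in part. Myh11, the smooth muscle myosin, was 5.93, 4.12, 5.00, 5.36 and 5.67 in isografts, against 9.17, 8.86, 8.51, 9.32 and 7.52 in native trachea, with no overlap (difference -3.46, SE 0.56, 11-fold lower). Cnn1, which tunes contraction, fell by 3.54 (SE 0.52). Acta2, the actin of smooth muscle and myofibroblasts, was not called at 11.23 ± 0.24 in isografts and 11.75 ± 0.36 in native trachea (difference -0.52, SE 0.23, adjusted p = 0.0608). It was called lower without native replicate 5 (-0.65, adjusted p = 0.0233) and with centring on the reference genes (-0.88, adjusted p = 0.00152). Cald1, an actin-binding protein also of non-muscle cells, rose by 1.25 (SE 0.21). Of 18 genes, 9 were called lower, 1 higher and 6 lay below the filter, with a median over the 18 of -1.30.

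Some endothelial genes of vessel growth rose. Apln, a peptide of sprouting tip cells, was 8.59, 7.22, 8.29, 8.69 and 9.53 in isografts, against 5.28, 5.07, 5.13, 5.92 and 5.40 in native trachea, and the groups did not overlap (difference 3.11, SE 0.34, adjusted p = 1.59e-08). Its receptor Aplnr rose by 2.10 (SE 0.31), with native replicate 5 (9.11) just inside the isograft range. Angpt2, which loosens vessels for sprouting, rose by 2.07 (SE 0.24). Vwf, the clotting factor stored in mature endothelium, averaged 4.09 ± 0.59 in isografts and 6.37 ± 0.33 in native trachea, a fall of 2.28 (SE 0.32). Pecam1, a general endothelial marker, rose by 1.64 (SE 0.67, adjusted p = 0.0466), a call that was lost on leaving out any of 6 arrays (adjusted p up to 0.184). Of 30 genes, 13 were called higher and 1 lower, with a median of 0.55. The count of 13 became 8 without isograft replicate 1 or without native replicate 5, and 7 with centring on the reference genes.

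Nerve and growth factor genes were called in both directions, in part near the shares over all measured genes (19.6% higher and 26.7% lower). Mbp, a myelin protein, was 5.86, 6.22, 4.38, 3.47 and 6.68 in isografts, against 8.54 to 9.04 in native trachea (difference -3.54, SE 0.63). Ncam1, an adhesion molecule of nerve, of Schwann cells that have lost myelin and of other tissues, rose by 1.49 (SE 0.39). Of 18 Schwann cell and nerve genes, 11 passed the filter, and the median over the 18 was -0.17. Of the 11, 2 were called higher (18.2%) and 5 lower (45.5%). Of 45 growth factor genes, 35 were measured, with 11 called higher (31.4%) and 9 lower (25.7%), and the median over the 45 was 0.07. With centring on the reference genes 6 were higher. In this list 3 measured genes passed the filter through the isografts alone. Inhba, which forms activin, rose by 2.48 (SE 0.39) and Igfbp3, an insulin-like growth factor carrier, by 2.07 (SE 0.30), while Igfbp6, another carrier, fell by 2.15 (SE 0.35).

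Mitochondrial genes were lower. Of 43 respiratory chain and ATP synthase genes on the array, 32 were called lower and 0 higher, with a median of -1.11. Of 20 fatty acid oxidation genes, 18 were lower and 0 higher (median -2.08), and of 16 citric acid cycle genes 14 were lower and 0 higher (median -1.58). Sdha, a catalytic subunit shared by the chain and the cycle, was 9.05, 9.56, 8.78, 8.95 and 8.95 in isografts, against 10.45, 10.70, 11.08, 10.68 and 10.97 in native trachea (difference -1.72, SE 0.40, adjusted p = 0.000951). The groups did not overlap. Acadm, which oxidises medium-chain fatty acids, averaged 7.99 ± 0.91 in isografts and 10.81 ± 0.40 in native trachea (difference -2.82, SE 0.64). Pdha1, which feeds pyruvate into the cycle, fell by 1.94 (SE 0.42), Idh3a by 1.87 (SE 0.54) and Ogdh by 1.95 (SE 0.55). Pdk4, which holds pyruvate back from the cycle in fat-burning tissue, fell by 2.92 (SE 0.84).

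The genes that mark brown fat and muscle mitochondria fell most. Cox8b, a respiratory subunit of those tissues, was 3.79, 8.23, 3.09, 3.98 and 3.52 in isografts, against 10.22, 9.34, 8.75, 10.73 and 9.07 in native trachea. Isograft replicate 2 lay far above the other isografts and still below the native arrays (difference -5.10, SE 1.21, and -6.03 without it). Cox7a1, of the same tissues, fell by 4.29 (SE 1.04) and Fabp3, a fatty acid carrier of muscle and brown fat, by 3.77 (SE 0.83).

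Fat genes fell with them. Of 23 adipocyte genes, 20 were called lower and 0 higher, with a median of -3.12. Ucp1, the uncoupling protein that defines brown fat, was 4.13, 10.07, 4.65, 4.48 and 3.75 in isografts, against 11.07, 10.65, 11.59, 11.67 and 9.75 in native trachea. Isograft replicate 2 lay among the native arrays and the other 4 isografts near background (difference -5.53, SE 1.59, and -6.69 without it). Cidea, a lipid droplet protein of brown fat, had 8.82 in that array, against 2.73 to 3.10 in the other isografts and 9.38 to 11.22 in native trachea. Its difference was -6.51 (SE 1.66), and -7.69 without the array. Thrsp, which promotes fat synthesis, fell by 5.52 (SE 1.18). Fasn, fatty acid synthase, was 7.66, 11.23, 7.44, 7.63 and 7.35 in isografts, against 12.22 to 12.89 in native trachea (difference -4.28, SE 0.88). Scd1 and Elovl6, which desaturate and lengthen fatty acids, fell by 3.72 (SE 0.93) and 3.64 (SE 0.82). Of 24 sterol and fatty acid synthesis genes, some of them shared with the fat list, 11 were called lower and 0 higher, with a median of -0.55.

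The summed markers of attached tissue moved with these results. Adipocyte levels were 6.44 to 9.38 in isografts, against 9.61 to 10.65 in native trachea. Skeletal muscle levels were 4.01 to 6.68, against 6.44 to 10.21, and thyroid and parathyroid levels 3.85 to 4.99, against 7.39 to 8.14. Mean fatty acid oxidation level was 8.53 in the fat-rich isograft replicate 2, against 7.20 to 7.68 in the other isografts and 9.32 to 10.27 in native trachea. The respiratory chain level was likewise highest in that isograft, at 9.59 against 9.01 to 9.28, and 10.18 to 10.71 in native trachea. Without isograft replicate 2 the lower counts were 33 of 43, 18 of 20 and 14 of 16, and without native replicate 5 they were 29, 18 and 13. The part of less attached fat and muscle in the mitochondrial results was not tested.

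**Figure D4:**
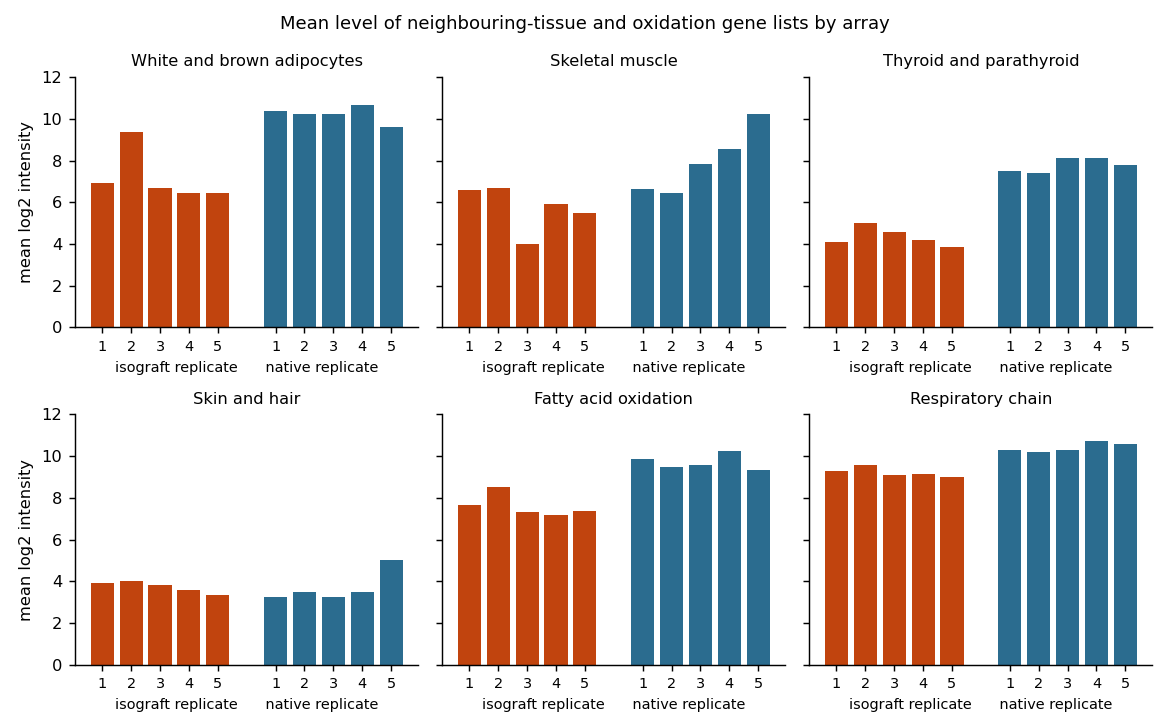
Mean log2 intensity over each gene list in each array, isografts left and native tracheas right. Isograft replicate 2 has the highest adipocyte (9.38) and fatty acid oxidation (8.53) levels of the isografts, and native replicate 5 the highest skeletal muscle (10.21) and skin (5.04) levels of all 10 arrays.

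Among the markers of attached tissue, Tg was 9.79, 8.65, 8.56, 8.5 and 7.82 in isografts, against 14.36 to 14.68 in native trachea (difference -5.80, SE 0.55). Pth was 2.29, 7.15, 6.33, 3.07 and 2.66, against 12.41 to 13.12, so that isograft replicates 2 and 3 kept some signal (difference -8.48, SE 0.86). Dio1, a thyroid deiodinase, fell by 5.11 (SE 0.40). Of 29 skeletal muscle genes, 18 passed the filter, 12 were called lower and 0 higher, with a median over the 29 of -2.44. Mb, the oxygen store of muscle, averaged 5.29 ± 1.59 in isografts and 9.74 ± 1.73 in native trachea (difference -4.45, SE 1.16). The count of 12 was 6 without isograft replicate 3 or native replicate 4, 7 without isograft replicate 5 and 4 without native replicate 5. Tnnc2 and Myh1, muscle fibre genes, fell by 4.17 and 3.42, and their calls were lost on leaving out any of 7 and any of 6 arrays (adjusted p up to 0.177 and 0.168). Of 18 skin and hair genes, 16 lay below the filter. Calml3, a keratinocyte calcium-binding protein, fell by 1.87 (SE 0.74, adjusted p = 0.0401), a call that was lost on leaving out any of 5 arrays (isograft replicates 3, 4 and 5 and native replicates 3 and 5), with adjusted p up to 0.158.

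Enzymes that handle foreign compounds and aldehydes, abundant in club cells, were lower. Of 28 on the array, 22 were called lower and 1 higher, with a median of -2.44. Aox3, an aldehyde oxidase, was 2.56, 2.11, 2.15, 2.06 and 3.02 in isografts, against 8.43, 8.74, 8.74, 8.08 and 6.88 in native trachea, and the isografts were at background (difference -5.80, SE 0.40). Aldh3a1, an aldehyde dehydrogenase of surface epithelia, fell by 4.94 (SE 0.65), and the sulfotransferase Sult1d1 by 4.40 (SE 0.59). Pon1, a serum esterase of liver, averaged 3.48 ± 0.47 in isografts and 10.16 ± 0.87 in native trachea. Cyp2e1, an alcohol-oxidising cytochrome of liver and fat, averaged 5.59 ± 2.61 and 11.71 ± 0.36, with 9.92 in the fat-rich isograft replicate 2 (difference -6.12, and -7.20 without it). Cyp1b1, which oxidises polycyclic compounds and steroids in stromal cells, was the higher gene at 9.04 ± 0.32 in isografts and 5.92 ± 0.52 in native trachea (difference 3.12, SE 0.34).

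The later isografts and the day 4 allografts place these values. They share the native arrays with the comparison above, so their levels are set side by side, and only the day 4 allografts were tested, against the day 4 isografts. The macrophage list averaged 6.59 in native trachea and 9.14, 8.48 and 8.62 in day 4, day 14 and day 25 isografts. The mitosis list averaged 4.62, 6.81, 4.90 and 5.14 in the same order, and the secretory list 10.80, 8.22, 10.02 and 9.98. The cilia list averaged 5.78, 4.26, 6.04 and 5.97. Smooth muscle genes averaged 7.74, 6.32, 6.45 and 6.83, and matrix genes 9.38, 10.35, 10.18 and 10.13. Il6 averaged 2.44 in native trachea and 7.67, 3.02 and 3.16 in the isografts by day, while Cd68 averaged 5.05 and 9.62, 8.80 and 8.78. Among gland products, Tff2 averaged 11.36 and 5.25, 6.35 and 6.05, while Dmbt1 averaged 13.02 in native trachea and 5.44 in day 4 isografts, and 11.18 in day 25 isografts.

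**Figure D5:**
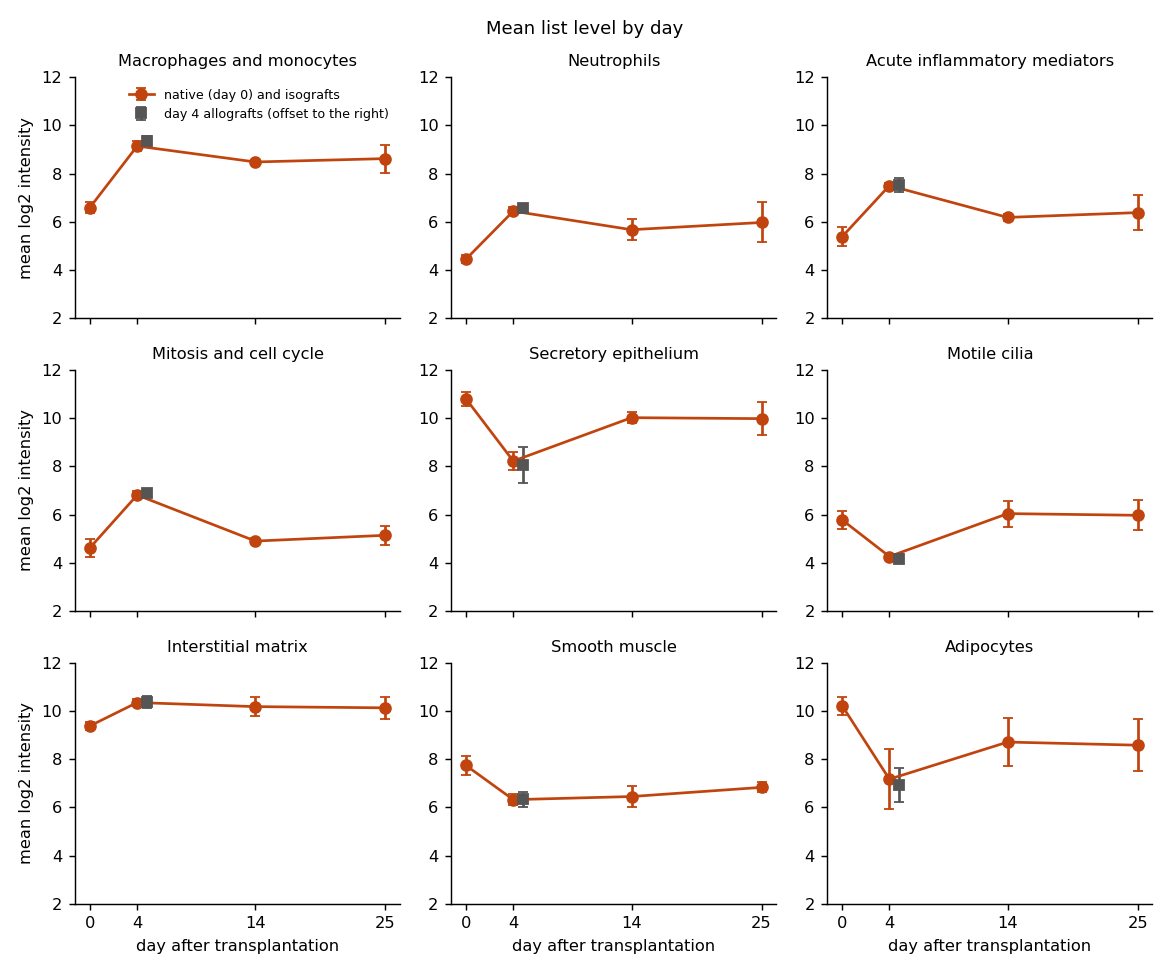
Mean ± SD log2 level of 9 gene lists in native trachea (drawn at day 0) and in isografts at days 4, 14 and 25 (circles, 5 arrays each), with day 4 allografts (squares) drawn slightly to the right of day 4. Mitosis genes are highest at day 4 (6.81), and secretory genes lowest at day 4 among these groups of isografts (8.22).

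Day 4 allografts, from MHC-incompatible pairs, differed most from day 4 isografts in the interferon response list, whose level was 8.24 ± 0.51 in allografts and 7.10 ± 0.35 in isografts, with no test of the list. Levels in allografts and isografts were 9.34 and 9.14 for macrophages, 6.90 and 6.81 for mitosis, 8.06 and 8.22 for secretory epithelium and 4.17 and 4.26 for cilia. Of the genes named here, limma called the allograft minus isograft difference at day 4 for Cxcl9 (5.10, adjusted p = 3.42e-10), Eno2 (-1.44, adjusted p = 0.0113) and Ndrg1 (-1.22, adjusted p = 0.04). Cxcl9 averaged 8.93 in allografts, against 3.83 in isografts. Arg1 averaged 11.39 and 10.90, and Il6 7.55 and 7.67, differences that were not called.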

How the data were processed

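Total RNA from trachea, taken up in TRIzol and column-purified, was turned into biotin-labelled cRNA, per the labels' protocols. The authors deposited 1 log2 intensity per probe set and array, made with GCRMA 1.1.3 per the submitters' processing notes, a method that corrects background, normalizes arrays and summarises probes. It pulls low values together, and no detection calls were used here. Groups came from the sample titles. Probe sets were named through the platform annotation and RefSeq (GRCm38.p6): of 22626, 20380 named 1 gene, 691 several and 1555 none. Those with several or none were counted but not named.

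A limma 3.58.1 model (R 4.3.3) with a mean for each of the 7 groups used the 35 arrays together (28 residual degrees of freedom, 32 after moderation). Isograft minus native was tested for the 13678 probe sets at 5 or more in at least 5 of the 35 arrays, with Benjamini-Hochberg adjustment over them, and the 12240 members were taken from that table. The number of arrays limits the precision. On simulated data for 13678 probe sets, 59% of 100 with a true log2 change of 1 were called, and 94% of 100 with a true change of 2, beside 10 false calls. Only these probe sets were changed, while 44.3% of those tested were called in the data. The Benjamini-Hochberg threshold depends on that share, so the simulated recovery does not carry over to this comparison.

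The members and the 41 gene lists were chosen with earlier results of these data known, so the lists are described by counts and medians without a test of the list. Genes could be named if they were among the 12 largest rises and 12 largest falls without overlap, up to 3 called genes in each direction and the highest uncalled gene of each list, or a set of tissue and injury genes, and most of the uncalled genes were left out. Cdc20 is named only for its promoter. Other genes were named only to say which members of a list lay below the filter, or as an example. A list's level is the mean log2 value of all its genes on the array. Alternatives changed the filter, scaling, weights, threshold and arrays.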

Additional observations from a re-analysis of the deposited data

Results flagged for a closer look

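In 24 of 312 groups of 5 arrays (156 genes, 2 groups each), 1 array stood apart from the other 4 by a gap test at 0.71 of the range. Chance alone gives about 1 in 20 groups. Isograft replicate 2 accounts for 12 of these, most of them genes of fat and of its metabolism. In that array Ucp1 was 10.07 (3.75 to 4.65 in the other isografts), Cidea 8.82 (2.73 to 3.10), Thrsp 9.18 (4.30 to 5.18), Fasn 11.23 (7.35 to 7.66) and Scd1 12.37 (7.99 to 9.23). Cox8b was 8.23 there (3.09 to 3.98), Cox7a1 6.63 (3.50 to 3.86), Acadm 9.57 (7.42 to 8.01), Fabp3 5.84 (3.97 to 4.51) and Orm1 8.5 (4.48 to 4.85). Epithelial genes were low in the same array: Prom1 was 4.19 (7.39 to 7.96) and Sult1d1 5.48 (6.33 to 6.63).

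Native replicate 5 stood apart for several genes. Calml3 of keratinocytes was 11.33 there (8.01 to 8.57 in the other native arrays), Aldh3a1 11.02 (8.32 to 9.07), Lipf 13.75 (13.07 to 13.25), Slc16a3 5.85 (4.45 to 4.84) and Mmp8 3.81 (2.64 to 2.93). It was low for Tppp3 at 9.27 (9.81 to 10.02) and for Pon1 at 8.64 (10.35 to 10.78). Other arrays apart were native replicate 2 for Fmod, at 11.04 (9.98 to 10.28), and native replicate 3 for Matn1, at 6.44 (8.79 to 9.15). Isograft replicate 3 was apart for Retnla, at 9.48 (5.80 to 6.51), and for the muscle myosin Myh1, at 3.29 (7.61 to 8.92), and isograft replicate 1 for Aldh3a1, at 6.54 (3.49 to 4.14).

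Between day 4 allografts and day 4 isografts, limma called 3 of the named genes: Cxcl9 by 5.10 (adjusted p = 3.42e-10), Eno2 by -1.44 (adjusted p = 0.0113) and Ndrg1 by -1.22 (adjusted p = 0.04).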

How the results depend on the processing

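The count of called members was 5409, 2492 higher and 2917 lower, and moved by more than 1.5 times under these alternatives: with a filter at log2 7 there were 3097 (1460 higher and 1637 lower), and with a 2-fold minimum 2722 (1189 and 1533). Leaving out each array in turn gave 4785 to 5440 calls, 2216 to 2410 higher and 2516 to 3030 lower. Centring on 16 scaling reference genes gave 1287 higher and 5209 lower, and centring on array medians 3204 and 2300. Of 154 genes named in the text with a test, 140 kept direction and call under every alternative in which they were tested. Most were named for large called differences, so this does not carry over to the other calls. Of the 5409 called members, 4204 kept call and direction with centring on the reference genes. Genes that did not pass the filter at log2 7 were not scored under it. Kit, not called, changed sign from -0.07 to 0.06 when quantile normalized again, 0.07 when centred on array medians, 0.02 without native replicate 3 or 4 (-0.16 to 0.02 on leaving out each array) and 0.23 as the mean of its probe sets, and no other of these genes reversed. Of 59 genes that could have been named and were not, 11 changed sign with centring on the reference genes, all of them not called. Over 3666 pairs of gene and alternative 73 lost a call and 11 gained one. The losses lay in Retnla, Psma5, Epcam, Krt15, Eln, Pecam1, Bcl2l11, Tnnc2, Myh1 and Calml3, and the cause was not tested. Whether replicate numbers pair the samples was not settled. Deviations of same-numbered arrays correlated at 0.28, 0.05, 0.23, -0.08 and -0.20, and those of other pairs at -0.32 to 0.21. The highest values, 0.28 and 0.23, were same-numbered, but these pairs are too few to decide it. The fit with the replicate block gave 5416 calls (2497 higher and 2919 lower), with Krt15, Tnnc2, Myh1 and Calml3 no longer called. No detection calls or probe signals were used here, so changes near background are bounded by the authors' correction.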
